A study of Mus musculus with 2 samples.

Results

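Osteopontin, encoded by Spp1, and the genes of its best known receptors were followed through the CD45+ cells of mouse liver metastases. The members were the UMI rows of 8 gene symbols among the 56941 features counted: Spp1, Cd44, Itgav, Itga4, Itga9, Itgb1, Itgb3 and Itgb5. All 8 were found, and all 8 had UMIs in both libraries. UMIs, unique molecular identifiers, count captured RNA molecules once each.

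The metastases grew from MC38-LM3b, a line of the mouse colon cancer cell MC38, after intrasplenic injection into C57BL/6 mice aged 6 to 8 weeks. In the Ctrl group the tumor cells carried a scrambled hairpin (shScramble), and in the KD group they carried a hairpin against SLAMF3 (shSLAMF3), a SLAM family receptor whose gene is Ly9. The hairpin was in the injected tumor cells only, so that the host's immune cells kept their own Ly9. Tissue was collected 2 weeks after injection, lesions of 3 mice were pooled for each group, and cells were enriched with a CD45 positive selection kit before 3′ single-cell RNA sequencing. Each group was therefore 1 library, no difference between the groups could be tested, and all intervals below cover counting error only.

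The filtered data held 9814 Ctrl and 10185 KD cells of 21359 in all, with medians of 5411 and 4989 UMIs per cell, and 27 cell barcodes occurred in both libraries. Ptprc, which encodes CD45, had a UMI in 88.0% and 87.3% of the cells. The files gave no cell types. Cells were clustered without the members among the genes used, and 12 classes were named from the marker genes of clusters. Macrophages here means cells of clusters with macrophage or monocyte markers, and the other classes are likewise those of their markers. The macrophages, 4042 Ctrl and 2925 KD cells, had UMIs of all 11 listed macrophage markers, among them C1qb at 2769 and 2508 CPM. CPM is the number of UMIs of a gene per 1000000 UMIs of the class or group of cells. The CD8+ T cells, 2809 and 1409 cells, had Cd8a at 253 and 193 CPM. A class with tumor and fibroblast markers, 161 and 95 cells, remained in spite of the CD45 selection. Ly9 had 12 and 7 UMIs in that class, 5.91 and 5.42 CPM, so these cells could not show the knockdown.

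Osteopontin is a secreted phosphoprotein of the SIBLING family, first known from bone, where it binds mineral. In tumors and inflamed tissue it is made by macrophages, by activated T cells and by some cancer cells. It binds integrins, paired alpha and beta chains on the cell surface, through an Arg-Gly-Asp motif, and it is also a ligand of CD44, the hyaluronan receptor. The integrins αvβ1, αvβ3 and αvβ5 read the Arg-Gly-Asp motif. α4β1 and α9β1 read a short site next to it that thrombin cleavage uncovers.

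The stretch of Spp1 that codes for both sites is shown because it links the ligand to the integrin genes described below. In capitals are the 9 bases of the Arg-Gly-Asp codons, and the 21 bases after them code for the 7 residues of the site read by α4β1 and α9β1. It lies in coding sequence on the plus strand at chr5:104439481-104439510 of GRCm38, in exon 6 of 7 of one annotated transcript (GENCODE vM21), within the gene at chr5:104435118-104441050. The reads were aligned to another build, GRCm39, and these positions were used for the sequence only.
Spp1 integrin sites: CGAGGTGATagcttggcttatggactgagg

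Counting at the 3′ end of transcripts does not separate Cd44 splice variants, nor osteopontin that is secreted from osteopontin kept in the cell, nor whole from cleaved protein. A receptor gene's RNA is also no measure of its protein on the surface.

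Spp1 was found in both macrophages and CD8+ T cells, and which of these classes had the higher level differed between the libraries. CD8+ T cells had 241 CPM of Spp1 (95% counting interval 234 to 247) in Ctrl and 118 (111 to 125) in KD, from 5531 and 1149 UMIs. Macrophages had 139 (135 to 144) in Ctrl and 208 (202 to 214) in KD, from 3571 and 4706 UMIs. The level in CD8+ T cells was 1.73 times that of macrophages in Ctrl, a log2 ratio of macrophages over CD8+ T cells of -0.79 (-0.85 to -0.73). In KD the level in macrophages was 1.76 times that of CD8+ T cells, a log2 ratio of 0.82 (0.72 to 0.91).

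Between the libraries, the log2 ratio of KD over Ctrl for Spp1 was 0.58 (0.52 to 0.64) in macrophages and -1.03 (-1.12 to -0.93) in CD8+ T cells. Genes with at least 200 UMIs in a class over both libraries were called higher or lower where this log2 ratio passed 0.5 in size. By that measure 5.89% of genes were called higher and 9.2% lower in macrophages, and 4.5% were called higher and 4.28% lower in CD8+ T cells. Of the members, 7 had enough UMIs in macrophages, and Spp1 and Cd44 were called higher. In CD8+ T cells 6 had enough, and Spp1 was the 1 called, as lower. The median log2 ratio was 0.11 over the members in macrophages against -0.025 over all genes, and -0.0068 against -0.039 in CD8+ T cells.

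The class with tumor and fibroblast markers had the highest Spp1 level in both libraries, 582 CPM (550 to 617) in Ctrl and 382 (349 to 417) in KD. Its log2 ratio was -0.61 (-0.76 to -0.46), in a class where 16.5% of genes were called lower. The fibroblast markers of that class summed to 1523 CPM in Ctrl and 782 in KD, while its tumor or epithelial markers summed to 1480 and 1531. Their part in the result was not tested. Counting each cell alike in place of each UMI gave a log2 ratio of -0.17, TMM scaling gave -0.48 and leaving out likely doublets gave -0.47, none of which is a call, and the stricter cell filter gave -1.03.

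Granulocytes, the neutrophil-rich class, had 113 CPM of Spp1 (98.7 to 129) in Ctrl and 75.6 (69.7 to 81.8) in KD. The log2 ratio was -0.58 (-0.80 to -0.35), where 15.3% of genes were called lower and 21.8% higher. With TMM scaling all log2 ratios in granulocytes moved by -0.12, and those in the class with tumor and fibroblast markers moved by 0.13. Classical dendritic cells (cDCs), which present antigen to T cells, had 45.2 (37.6 to 53.9) and 16.4 (13.1 to 20.3), a log2 ratio of -1.46 (-1.88 to -1.05), in a class where 5.37% of genes were called lower. The 11 macrophage markers summed to 1297 and 1372 CPM in cDCs. Whether their Spp1 UMIs came from RNA of other cells was not tested.

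The other classes had few Spp1 UMIs. NK cells had 76.6 CPM in Ctrl and 95.8 in KD, from 46 and 53 UMIs, and their intervals overlapped those of granulocytes in both libraries. Between B cells, endothelial-like cells, Kupffer cells (the resident macrophages of the liver), regulatory T cells, CD4+ T cells and plasmacytoid dendritic cells (pDCs) the levels ran from 2.04 to 22.2 in Ctrl and from 1.47 to 19.3 in KD. Each of these overlapped in its interval with the class next to it in the order. None had 200 Spp1 UMIs. B cells had a log2 ratio of -1.33 (-2.30 to -0.35) from 18 and 22 UMIs. Endothelial-like cells had one of -0.79 (-1.51 to -0.027) from 24 and 52. pDCs, with 1 and 9 UMIs, and CD4+ T cells, with 2 and 9, went the other way. Kupffer cells had 8 and 6 Spp1 UMIs, 18.8 and 9.78 CPM, below the level of the other macrophages in both libraries.

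**Figure D1:**
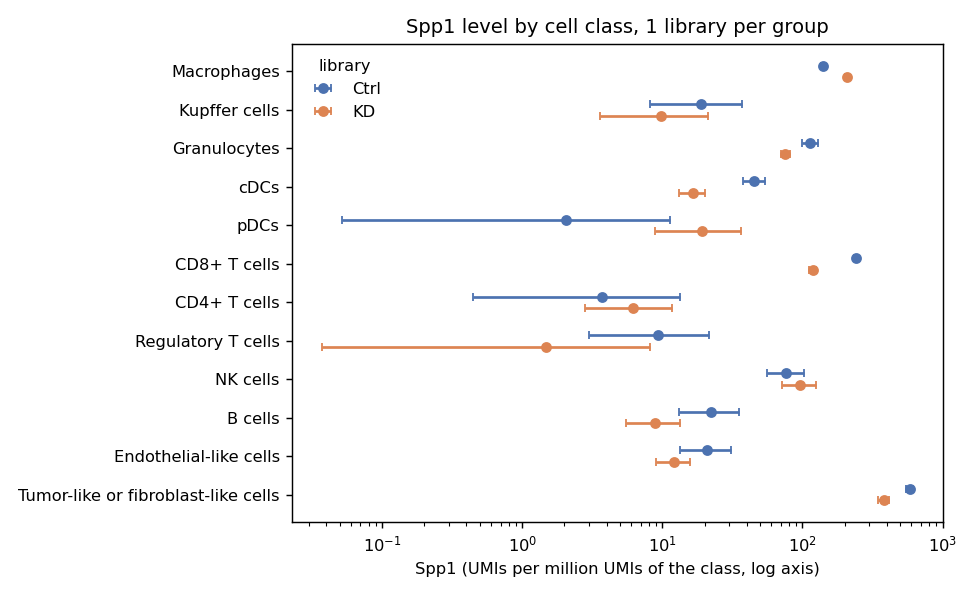
Spp1 level in CPM in each cell class (log axis), with 1 point per library and bars for the 95% counting interval. CD8+ T cells sit at 241 in Ctrl and 118 in KD while macrophages sit at 139 and 208, and the class with tumor and fibroblast markers is highest in both libraries.

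Where the Spp1 UMIs of a library came from followed both the levels and the numbers of cells. Of 11505 Spp1 UMIs in Ctrl, 48.1% were in CD8+ T cells and 31.0% in macrophages, although macrophages were 41.2% and CD8+ T cells 28.6% of the cells. Of 7792 Spp1 UMIs in KD, 60.4% were in macrophages, 28.7% of the cells, and 14.7% were in CD8+ T cells, 13.8% of the cells. The class with tumor and fibroblast markers held 10.3% and 6.33%. Over all cells Spp1 was at 179 CPM in Ctrl and 126 in KD, a log2 ratio of -0.50 (-0.55 to -0.46).

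**Figure D2:**
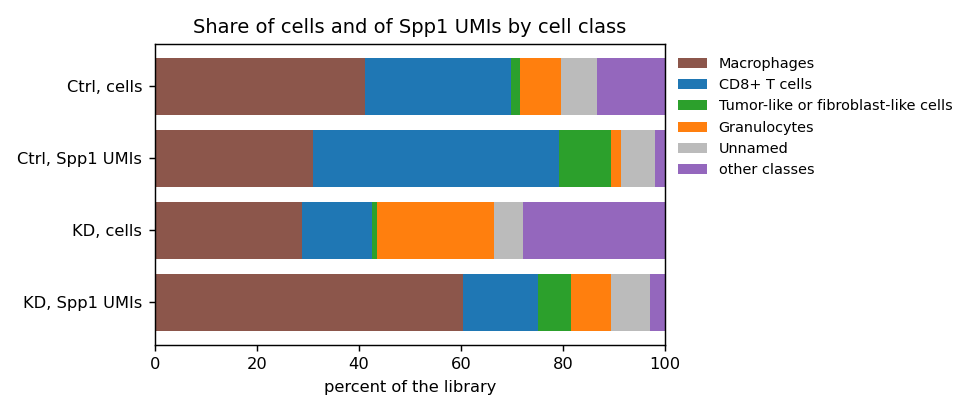
Stacked bars of the percent of cells and of Spp1 UMIs in each library by cell class. CD8+ T cells held 48.1% of the Spp1 UMIs in Ctrl and 14.7% in KD, and macrophages held 31.0% and 60.4%.

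A Spp1 UMI was found in 30.3% of CD8+ T cells in Ctrl (28.6% to 32.0%) and in 13.6% (11.8% to 15.5%) in KD. For macrophages these shares were 18.1% (16.9% to 19.3%) and 20.9% (19.4% to 22.4%). Since a deeper cell shows more genes, cells were thinned to 1500 UMIs each, which left out 46 and 38 CD8+ T cells and 291 and 116 macrophages. The shares were then 14.9% and 5.47% of CD8+ T cells and 8.29% and 10.5% of macrophages. The order between the classes and between the libraries was the same as before thinning. For comparison, 1.48% and 1.77% of CD4+ T cells had a Spp1 UMI before thinning and 0.769% and 0.602% after it, and for B cells the shares were 4.80% and 2.41% before and 2.92% and 1.38% after. The background itself was not measured, since empty droplets were not used here. The median depth was 3394 and 4000 UMIs in CD4+ T cells and 2559 and 2588 in B cells, against 6941 and 5740 in CD8+ T cells.

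Free RNA from macrophages was checked in the CD8+ T cells, since it can give UMIs in cells that do not make a gene. Lyz2, the lysozyme of macrophages, was at 4879 and 6826 CPM in macrophages and at 41.8 and 53.9 in CD8+ T cells. For each 1000 Lyz2 UMIs there were 28.5 and 30.5 Spp1 UMIs in macrophages, but 5755 and 2193 in CD8+ T cells and 45.5 and 70.9 in CD4+ T cells. Among CD8+ T cells without a UMI of 8 macrophage genes, 991 in Ctrl and 457 in KD, Spp1 was at 217 (207 to 228) and 109 (96.9 to 121) CPM. The level in CD8+ T cells was thus nearly as high without macrophage UMIs as in all of them. The 11 macrophage markers summed to 135 and 151 CPM in CD8+ T cells, and the 5 tumor or epithelial markers to 4.66 and 5.35, with Cldn4 at 0 in both libraries.

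A small number of cells held most of the Spp1. In Ctrl macrophages 72 cells, 1.78% of them, held 50% of the Spp1 UMIs, and the highest cell had 182. In KD macrophages 50 cells, 1.71%, held 50%, and the highest had 119. Cells with 10 or more Spp1 UMIs were 98 of the Ctrl and 119 of the KD macrophages, and they held 58.2% and 74.5% of the UMIs. In CD8+ T cells 102 Ctrl cells, 3.63%, and 17 KD cells, 1.21%, held 50%. There 171 Ctrl cells and 33 KD cells had 10 or more. The median cell with any Spp1 had 2 or 3 UMIs in these classes.

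Macrophages fell into 8 sub-clusters, called here by their leading genes. The higher Spp1 level of KD macrophages rested on a pair of sub-clusters found nearly only in the KD library. The first, led by Ltc4s, Pf4 and Fabp7, held 373 KD and 6 Ctrl cells, with 599 CPM of Spp1 (573 to 626) in KD and 0 UMIs in the 6 Ctrl cells. The second, led by Pf4, Ccl6 and Ltc4s, held 52 KD cells and 1 Ctrl cell, with 1853 CPM (1671 to 2050) in KD. Spp1 was itself among its leading genes. Together they were 14.5% of the KD macrophages and held 49.3% of their Spp1 UMIs.

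Without these sub-clusters the comparison turned round. The remaining 4035 Ctrl macrophages had 139 CPM of Spp1 (135 to 144) and the 2500 KD macrophages had 124 (120 to 130), a log2 ratio of -0.16 (-0.24 to -0.088). The log2 ratio of macrophages over CD8+ T cells in KD was then 0.075. Weighting the KD levels by the share of the class's UMIs that each sub-cluster held in Ctrl led to a log2 ratio of -0.25. Ctrl levels at the KD shares led to 0.84, but there the Ctrl levels of these sub-clusters came from 7 cells with 1 Spp1 UMI. A sub-cluster of 1 library may belong to the lesions, the pooled mice or the library, and with 1 library per group these cannot be told apart.

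The 6 macrophage sub-clusters with at least 10 cells in each library differed in direction. For sub-clusters no minimum of UMIs was set, and the log2 ratio of Spp1 passed 0.5 upward in 2 of them and downward in 2. How many of all genes passed 0.5 within a sub-cluster was not computed, so these counts have no background beside them. The sub-cluster led by Il1a, Cxcl1 and Il6, genes of inflammatory cytokines, had 213 CPM (196 to 232) in Ctrl and 428 (403 to 454) in KD, a log2 ratio of 1.00 (0.85 to 1.15). The monocyte-like one, led by Vcan and Chil3, had 23.7 (17.7 to 31.0) and 45.3 (38.0 to 53.5), a log2 ratio of 0.94 (0.47 to 1.42) that rests on 53 and 138 UMIs. In the other direction, the one led by Ly6i, Gadd45b and Hspa1a had 176 (168 to 185) and 78.0 (70.8 to 85.7), a log2 ratio of -1.17 (-1.33 to -1.02). It was the largest, with 1323 Ctrl and 704 KD cells, and held 44.4% of the Ctrl macrophage Spp1 UMIs but 9.18% of those in KD. The cycling sub-cluster, led by Pclaf and Top2a, had 140.3 and 98.3, a log2 ratio of -0.51 (-0.76 to -0.27). The one led by Ccl8, Mmp12 and Mgl2 had 117 and 91.4, a log2 ratio of -0.36. The one led by Cadm1, with the fewest UMIs per cell, had 71.8 and 63.2, and the interval of its log2 ratio of -0.19 held 0 (-0.64 to 0.25).

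CD8+ T cells fell into 5 sub-clusters, and a different one was the largest in each library. The sub-cluster with markers of exhausted T cells, led by D430041D05Rik, Spp1 and Prf1, held 39.7% of the Ctrl but 20.01% of the KD cells. The naive-like one, led by Lef1, held 8.37% and 27.5%. Spp1 was at 340 CPM (328 to 352) in Ctrl and 171 (154 to 188) in KD in the exhausted-like sub-cluster, a log2 ratio of -0.99 (-1.15 to -0.84). Spp1 was not used to form the sub-clusters, but it is among the leading genes of this one. In the cycling one it was at 233 and 161, a log2 ratio of -0.53 (-0.67 to -0.41). The sub-cluster led by Ccl5, Ly6c2 and Gzma, genes of effector cells, had 58.1 and 73.0, and the interval of its log2 ratio of 0.33 held 0 (-0.020 to 0.68). The naive-like one had 6.68 and 2.51, from 6 and 4 UMIs. A sub-cluster of 87 and 42 cells, led by Aff3, Nrn1 and Tcf7, had 24.4 and 43.2, with overlapping intervals.

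The lower Spp1 of KD CD8+ T cells was seen both in the sub-cluster shares and within sub-clusters. With sub-clusters weighted by their share of the class's UMIs, KD levels at the Ctrl shares gave 145 CPM and a log2 ratio of -0.73, and Ctrl levels at the KD shares gave a log2 ratio of -0.64 for the levels alone. Split by UMIs of Pdcd1 (PD-1) and Havcr2 (TIM-3), receptors that mark exhausted T cells, Spp1 was at 303 and 203 CPM in cells with both, 169 and 72.3 in cells with 1 of them, and 50.7 and 28.9 in cells with neither. The median depth of these cells fell in the same order, from 9028 to 3947 UMIs in Ctrl and from 8299 to 4112 in KD, and a deeper cell more often shows both genes.

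**Figure D3:**
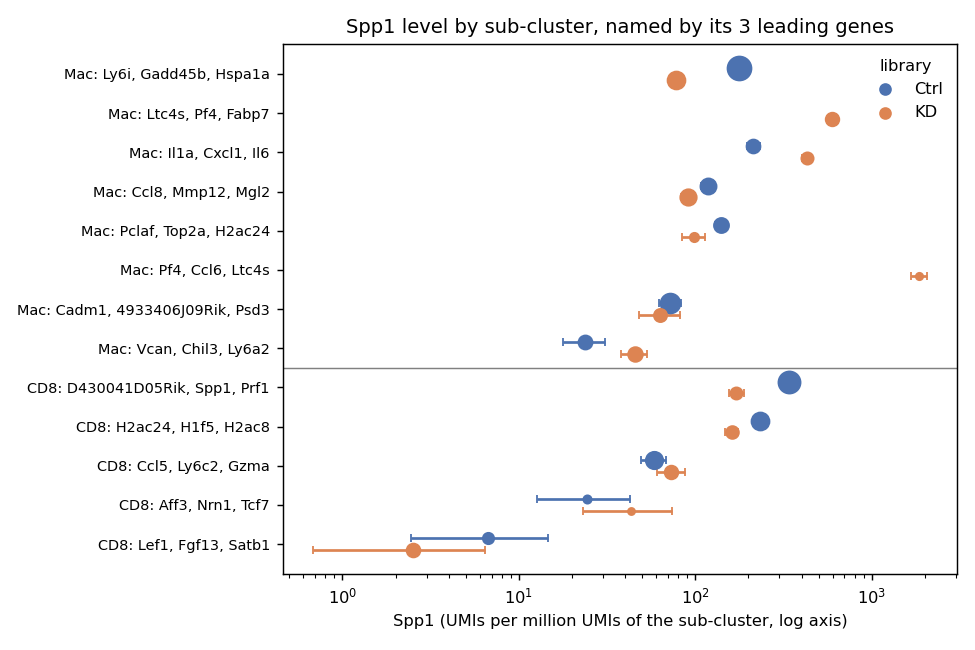
Spp1 level in CPM (log axis) in each macrophage (Mac) and CD8+ T cell (CD8) sub-cluster with at least 10 cells in the library, with 95% counting intervals and larger points for more cells. The sub-clusters led by Pf4 genes sit at 599 and 1853 with no Ctrl point, and those led by Ly6i and by D430041D05Rik are lower in KD.

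Cd44 differed most among the receptors in macrophages. This receptor of hyaluronan and osteopontin marks activated and migrating leukocytes. Macrophages had 419 CPM of Cd44 (411 to 427) in Ctrl and 663 (652 to 674) in KD, a log2 ratio of 0.66 (0.63 to 0.70). After thinning, 38.9% and 52.9% of macrophages had a Cd44 UMI. Unlike Spp1, Cd44 was higher in KD in each of the 6 sub-clusters shared by the libraries. The log2 ratio ran from 0.084 in the monocyte-like sub-cluster to 0.80 in the one led by Cadm1, and it passed 0.5 in 4 of them. The monocyte-like sub-cluster had the highest level of the 6 in Ctrl (1002, with 1062 in KD). The share of all genes past 0.5 was not computed within sub-clusters. Without the sub-clusters of 1 library the log2 ratio was 0.56. KD levels at the shares of UMIs that sub-clusters held in Ctrl gave 0.46, and Ctrl levels at the KD shares gave 0.44. Neither of these is a call. The KD sub-cluster led by Ltc4s had 944 CPM, and that led by Pf4 and Ccl6 had 354.

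Granulocytes had the highest Cd44 level, 1676 in Ctrl and 1681 in KD, with a log2 ratio of 0.0043. Kupffer cells (950 and 818) and pDCs (937 and 721) came next and did not differ from each other beyond their intervals. CD8+ T cells had intervals of 134 to 143 and 123 to 137, and that of their log2 ratio of -0.090 held 0 (-0.18 to 0.0049). In the exhausted-like sub-cluster it was -0.32 (-0.52 to -0.13).

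Cd44 was also called higher in cDCs, at 209 and 300, a log2 ratio of 0.52 (0.38 to 0.66), where 4.6% of genes were called higher. Counting each cDC alike gave 0.28 and leaving out likely doublets gave 0.38, neither of which is a call. In endothelial-like cells, which line the liver's vessels, Cd44 was at 34.9 (24.9 to 47.5) and 101 (91.7 to 111), a log2 ratio of 1.54 (1.07 to 2.04), where 8.84% of genes were called higher and 9.98% lower. Granulocyte markers moved with Cd44 in all 3 classes where it was called. Their sum went from 222 to 928 CPM in macrophages, from 88.6 to 635 in cDCs and from 115 to 1549 in endothelial-like cells. They also went from 36.9 to 193 in CD8+ T cells and from 141 to 710 in the class with tumor and fibroblast markers, where Cd44 was not higher. In KD granulocytes themselves, 1681 CPM of Cd44 stood beside 111177 of those markers. Their part in the result was not tested.

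Itgav, the αv chain that pairs with β1, β3 or β5, was highest in regulatory T cells, which restrain immune responses. They had 578 CPM (516 to 646) in Ctrl and 1074 (997 to 1154) in KD, a log2 ratio of 0.89 (0.70 to 1.09), where 10.3% of genes were called higher. CD4+ T cells came second, at 385 (335 to 441) and 722 (680 to 767), a log2 ratio of 0.91 (0.69 to 1.13), where 3.07% of genes were called higher. Both classes were small, with 73 and 118 regulatory and 135 and 339 CD4+ T cells. CD8+ T cells were the next, at 360.3 and 322, overlapping with CD4+ T cells in Ctrl but not in KD, and did not share the difference, with a log2 ratio of -0.16 (-0.22 to -0.10). In their exhausted-like sub-cluster Itgav was at 442 and 475. Macrophages had 145 and 129, a log2 ratio of -0.17. Across the macrophage sub-clusters Itgav ran from a log2 ratio of -0.68 in the cycling one to 0.58 in the one led by Il1a, where Spp1 and Cd44 were higher too. Itgav was called lower in endothelial-like cells, at 178 and 92.4, a log2 ratio of -0.94 (-1.19 to -0.69), and in granulocytes, at 48.0 and 33.5, one of -0.52 (-0.86 to -0.16).

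Itga4, the α4 chain that guides leukocytes to VCAM-1 on vessels, had its highest levels in lymphocytes. CD4+ T cells had 848 and 799 CPM, NK cells 689 and 625, and CD8+ T cells 531 and 584. The ratio passed the threshold in 1 of 10 classes, granulocytes, with 177 and 115 and a log2 ratio of -0.63 (-0.80 to -0.45). In macrophages Itga4 was at 229 and 227, and the interval of the log2 ratio of -0.012 ran from -0.066 to 0.043.

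Itga9, the α9 chain, was limited to few classes. Kupffer cells had 408 (350 to 473) and 567 (509 to 630) CPM, endothelial-like cells 231 (204 to 260) and 339 (322 to 357), and macrophages 165 and 140.2. The log2 ratio was 0.55 (0.36 to 0.75) in endothelial-like cells, 0.47 in Kupffer cells and -0.24 in macrophages. In CD8+ T cells 45 and 24 Itga9 UMIs were counted, 1.96 and 2.47 CPM. The macrophage level was 84.3 and 56.8 times that. Within the macrophages, Itga9 was at 5.80 and 2.62 in the monocyte-like sub-cluster and at 202 and 208 in the one led by Ccl8, Mmp12 and Mgl2.

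Itgb1, the β1 chain shared by α4, α9 and αv, was measured in nearly all classes. NK cells had 583 and 430 CPM, endothelial-like cells 491 and 477, and CD4+ T cells 422 and 449, and the intervals of neighbours in this order overlapped. Macrophages (191 and 206) and CD8+ T cells (198 and 216) had about the same level, with log2 ratios of macrophages over CD8+ T cells of -0.052 (-0.11 to 0.0062) and -0.074 (-0.15 to 0.00071). Itgb1 was called in granulocytes, as lower, with 102 and 69.3 and a log2 ratio of -0.56 (-0.79 to -0.32). With granulocytes taken from single cells by their markers, without clusters, it was 0.18.

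The β3 and β5 chains had opposite orders in macrophages and CD8+ T cells. Itgb3 was at 31.4 and 33.1 CPM in CD8+ T cells but at 1.17 and 1.06 in macrophages, from 30 and 24 UMIs. The level in CD8+ T cells was 26.9 and 31.2 times that of macrophages. Itgb5 had the opposite order, at 101 and 125 in macrophages and 2.05 and 1.95 in CD8+ T cells, 49.3 and 64.2 times higher in macrophages. The other myeloid classes did not share the Itgb5 level, with 10.99 and 10.2 in granulocytes and 5.79 and 7.64 in cDCs, near the 9.26 and 10.2 of CD4+ T cells. Kupffer cells had 192 and 207 CPM of Itgb5 and no more than 1 Itgb3 UMI in a library. CD4+ T cells had Itgb3 at 92.6 and 70.3, and regulatory T cells had it at 74.4 and 70.6. In endothelial-like cells Itgb3 was at 88.0 (71.7 to 107) and 187 (175 to 201), a log2 ratio of 1.09 (0.79 to 1.40). Itgb5 had a log2 ratio of 0.31 (0.24 to 0.39) in macrophages, short of the threshold, and one of 0.77 (0.62 to 0.92) in the sub-cluster led by Ly6i.

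**Figure D4:**
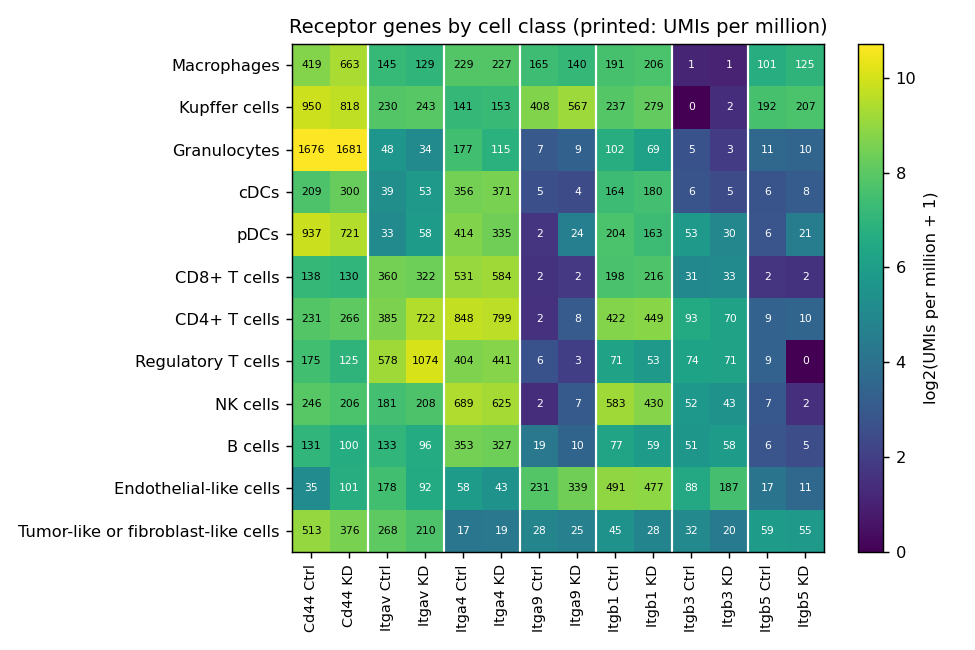
Receptor genes by cell class and library; the printed values are levels in CPM and the colour is log2 of that value plus 1. Itgb3 is near 0 in macrophages and Kupffer cells, Itgb5 and Itga9 are at 10.2 or less in the T cell classes, and Itgav reaches 1074 in KD regulatory T cells.

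Since an integrin needs both chains, cells with UMIs of both were counted after thinning to 1500 UMIs. Itga4 with Itgb1 was the most frequent pair in CD8+ T cells, in 13.9% (12.6% to 15.2%) of Ctrl and 12.5% (10.8% to 14.3%) of KD cells. In macrophages it was found in 7.41% and 7.55%. Itgav with Itgb3 was found in 1.88% and 1.31% of CD8+ T cells. In macrophages that pair was in 0 of 3751 Ctrl cells, with an upper 95% limit of 0.0983%, and in 1 of 2809 KD cells. Itgav with Itgb5 was found in 2.37% and 2.85% of macrophages and in 0.0724% and 0.146% of CD8+ T cells. Itga9 with Itgb1 was found in 22.9% of KD and 14.6% of Ctrl endothelial-like cells, with overlapping intervals, and in 4.75% and 4.88% of macrophages. Itgav with Itgb1 was found in 8.40% (7.39% to 9.49%) and 6.71% (5.44% to 8.17%) of CD8+ T cells, and in 4.61% and 4.88% of macrophages. For each pair the intervals of the libraries overlapped in macrophages and in CD8+ T cells. In CD8+ T cells the KD shares of Itgav with Itgb1, Itgav with Itgb3 and Itga4 with Itgb1 lay below the Ctrl intervals. At this depth a pair was missed in many cells. Without thinning, Itga4 with Itgb1 was seen in 59.7% and 51.1% of CD8+ T cells, and Itgav with Itgb1 in 50.4% and 40.2%.

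In all, 48 of the 84 pairs of a receptor gene and a class had at least 200 UMIs. Of these 7 were called higher in KD, 4 lower and 37 neither. Endothelial-like cells gave 4 of the 11 calls (Cd44, Itga9 and Itgb3 higher, Itgav lower) and granulocytes gave 3 (Itgav, Itga4 and Itgb1, all lower). These classes also had high shares of all genes called, 8.84% higher and 9.98% lower in endothelial-like cells and 21.8% and 15.3% in granulocytes. The remaining calls, all higher, came from macrophages, cDCs, CD4+ T cells and regulatory T cells. There 5.89%, 4.6%, 3.07% and 10.3% of all genes were called higher. A share over all genes for the 48 pairs together was not computed, so their count is a description and no result about the receptors. In granulocytes the median log2 ratio over the 5 members with enough UMIs was -0.56, against 0.14 over all genes tested there. The granulocytes joined clusters whose shares differed between the libraries. The one led by Ngp, Camp and Ltf held 38 of 806 Ctrl and 330 of 2340 KD granulocytes. The part of this mix in the granulocyte values was not tested. The Spp1 and receptor values in this class come from 226 or fewer UMIs each in Ctrl for all but Cd44 and Itga4.

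**Figure D5:**
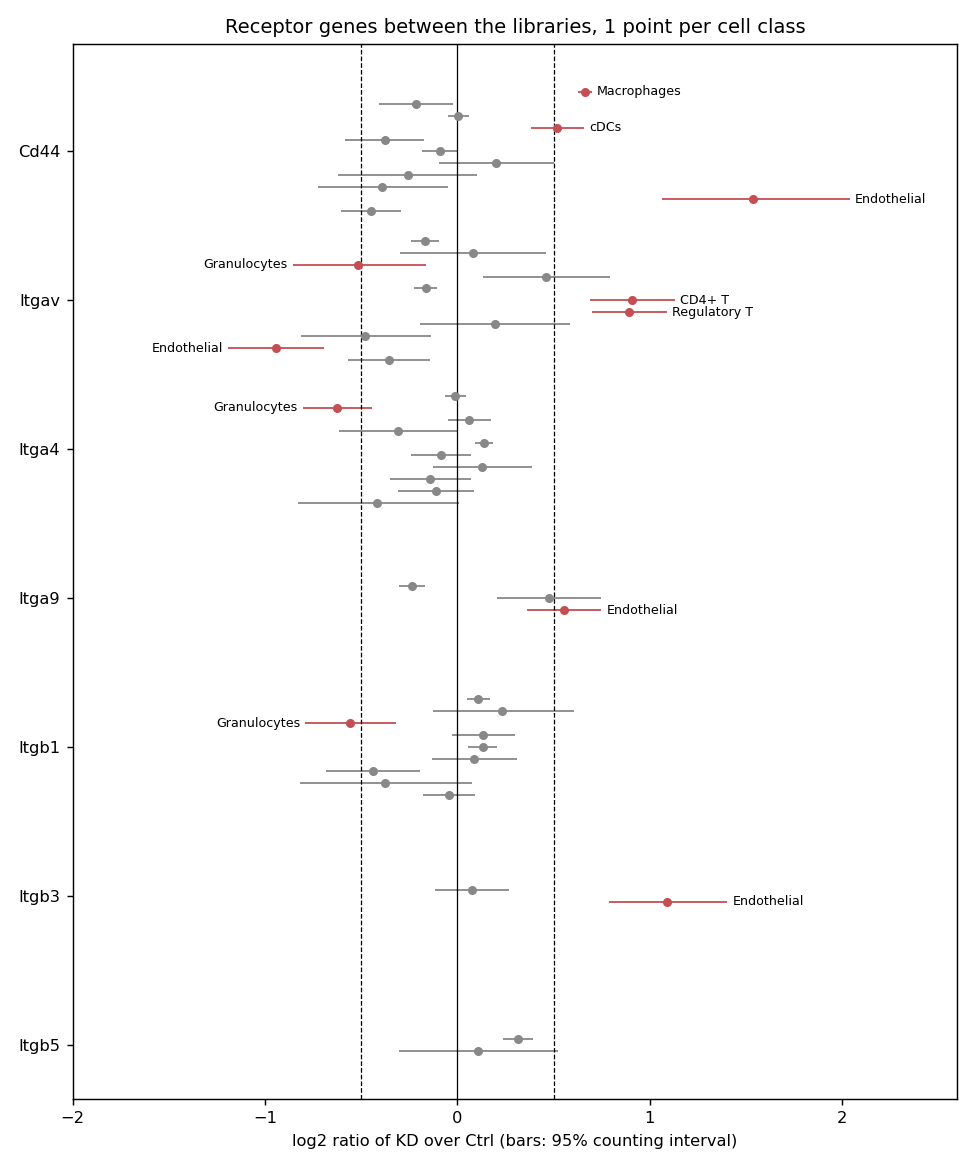
Log2 ratio of KD over Ctrl for each receptor gene, with 1 point per cell class that had at least 200 UMIs and bars for the 95% counting interval; dashed lines mark the threshold of 0.5 and named red points pass it. The points farthest to the right are Cd44 and Itgb3 in endothelial-like cells, at 1.54 and 1.09.

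Receptor levels in the cells that held the most Spp1 were compared with those in cells without it. In KD macrophages with 10 or more Spp1 UMIs, Cd44 was at 905 CPM (851 to 962), against 655 (643 to 667) in those with none. In Ctrl the order was opposite, 337 (304 to 373) against 442 (432 to 451). Itga9 was lower in the Spp1-rich cells of both libraries, at 91.1 against 167 in Ctrl and 73.0 against 151 in KD. Itgav was at 148 against 145 in Ctrl and at 165 against 128 in KD. The Spp1-rich cells were deeper, with medians of 9862 and 9142 UMIs against 5233 and 7091. They also mix sub-clusters: those of 1 library held 49.3% of the KD macrophage Spp1 UMIs, with Cd44 at 944 and 354 CPM. The part of the sub-clusters in these contrasts was not tested.

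Other genes of the pathway were read from lists, which were chosen with earlier results of these data known. Their counts are descriptions and no test of a list. Fn1, Vcan, Mmp12 and Ctsd stand in the list of SPP1+ macrophages and again in a list below, so their calls recur. Of 20 genes often reported with SPP1+ macrophages in tumors, 12 were called higher in KD macrophages and 4 lower, with a median log2 ratio of 0.61. Over all genes 5.89% were called higher and 9.2% lower there, with a median of -0.025. Genes of this list were among the leading genes of the sub-clusters of 1 library, Fn1 in the first and Arg1 in the second. Without those sub-clusters 8 of the 20 were called higher and 3 lower, with a median of 0.32, against 4.57% and 7.99% of all genes. Trem2, Hilpda and Ctsd were then no longer called, and Marco was called lower in place of higher. Those called higher included Fn1 (fibronectin, 164 and 608 CPM, log2 ratio 1.89), Gpnmb (6.74 and 25.8, 1.94), Arg1 (arginase, 199 and 541, 1.45), Apoe (1.29) and Trem2 (a lipid receptor, 0.51). Those called lower were Vegfa (-0.61), Slc2a1 (-0.59), Ero1a (-0.54) and Il1rn (-0.91), of which Slc2a1 and Ero1a were not called without the sub-clusters of 1 library. In CD8+ T cells 9 of the list had enough UMIs, and Lgals3 (0.58) and Apoe (1.36) were called higher, against 4.5% of all genes. Apoe was at 1630 and 3996 CPM in macrophages and at 19.0 and 48.9 in CD8+ T cells.

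The calls in the other lists stand beside the same 5.89% and 9.2% of all genes in macrophages, and lists this short can hold a call or more at such shares. Among other ligands of CD44 or these integrins, Fn1, Thbs1 (thrombospondin-1, 451 and 873, log2 ratio 0.95) and Vcan (versican, 68.7 and 240, 1.80) were called higher in KD macrophages and Vwf lower (-0.95), of 8 with enough UMIs. Of the proteases that cut osteopontin, Mmp12 (114 and 259, 1.18) and Ctsd (cathepsin D, 0.70) were called higher and Plau (urokinase, -0.60) lower, of 4, and Mmp12 alone was called without the sub-clusters of 1 library. None of the 4 other SIBLING genes reached 200 UMIs in macrophages, CD8+ T cells or granulocytes. Of the other integrin chains in macrophages, Itgam (CD11b, 173 and 311, 0.85) was called higher, Itga8 lower (-1.37) and 7 neither. Of 9 adhesion and CD44 adaptor genes there, Vcl (vinculin, 0.66) was called higher and Hmmr, another hyaluronan receptor, lower (-1.05). The cycling sub-cluster held 476 of 4042 Ctrl and 133 of 2925 KD macrophages, and its part in the Hmmr value was not tested.

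In CD8+ T cells, 4 of 8 other integrin chains were called higher and Itga3 lower (-0.55), where 4.5% of all genes were called higher and 4.28% lower. The 4 were Itgb7, the partner of α4 in gut homing (28.0 and 66.1, 1.24), Itga1 (0.84), Itga6 (0.70) and Itgax (0.93). Plau was lower there too (10.97 and 5.14, -1.09), and none of the adaptor genes or of the 3 other ligands was called. In granulocytes, where 21.8% of all genes were called higher and 15.3% lower, Icam1, a ligand of β2 integrins, was called lower (405 and 115, -1.82), as was Thbs1 (-0.72), while Fn1 (1.02), Itga5 (1.16), Itgam (0.53), Tln1 (talin, 0.71), Ezr (ezrin, 0.69) and Vcl (0.55) were higher. Mmp12 in granulocytes had 6 UMIs in Ctrl and 228 in KD, a log2 ratio of 3.23 (2.09 to 4.69). Other RNA of macrophages was also higher in KD granulocytes, with C1qb at 106 and 190 CPM and Apoe at 153 and 437. The part of macrophage RNA in the Mmp12 and Fn1 values was not tested.

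The genes most like each member in their pattern were found by Pearson's r of log2(CPM + 1) over 24 profiles (12 classes in 2 libraries). Classes of a library share their depth and free RNA, and these values are descriptions. For Spp1 they were Adam3, Gm42793, Tiam2, Clic5 and Gm52969, with r from 0.83 to 0.73. Over 14 profiles of macrophage sub-clusters they were Timp1 (0.93), an inhibitor of metalloproteinases, Cd1d1, Folr2, Ctsd and Rhoc (0.89). Over 10 profiles of CD8+ T cell sub-clusters they were Mphosph6, Smdt1, Calm3, Sec61b and Ostc, each at 0.98 or 0.99. Itga4 went with Dock10, Celf2 and Dock2 (0.95 for each), Itga9 with Tfec, Ptgs1 and Mertk (0.95 to 0.93), and Itgb5 with C1qc, Slc7a2 and Arl8a (0.91 to 0.90). Itgb3 went with Trim24, Ets1 and Atrx (0.94 to 0.93), Cd44 with Bin3, Cln3 and Fth1 (0.86 to 0.83), Itgav with Gm13684, Gm4924 and Atxn1 (0.88 to 0.85), and Itgb1 with Slc9a9, Mettl7a1 and Rnf166 (0.87 to 0.78).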

How the data were processed

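The authors deposited UMI counts per gene and cell, not normalized, made with Cell Ranger 7.1.0 on GRCm39 from 10x Genomics 3′ libraries, per the submitters' notes; the annotation version is not given in the sources used here. Cells were filtered as the study states (at least 200 genes, at most 10% mitochondrial UMIs, 30000 UMIs and 6000 genes), which left 19999 cells, within a few cells of the study's own number. Doublets were removed only by these upper limits, with no caller; one alternative left out 1555 cells with UMIs of defining markers of another lineage (T, B, macrophage or granulocyte) as likely doublets. Cells were clustered with Seurat 5.3.0 in R 4.3.3 (2000 variable genes without the members and pathway genes, 20 components, resolution 0.5). Clusters were named where at least 3 listed markers fitted, and clusters with monocyte markers were named macrophages. Macrophages and lymphoid cells were clustered again, and 5 of 21 sub-clusters stayed unnamed. A macrophage sub-cluster kept that name unless markers of another lineage led it or its UMIs per cell were low, without a new count of macrophage markers. UMIs were summed per class and library. Sums have exact Poisson intervals, shares Clopper-Pearson intervals and ratios conditional binomial intervals, all at 95%. Cells are not replicates and no p-value was computed. The members and lists were chosen with earlier results of these data known. Of pathway genes, those past the threshold were named, with others by UMIs, and the 5 or 3 genes most like each member. On simulated counts for macrophages (9916 genes, 200 changed by a log2 ratio of 1), the threshold found 100% of the changed genes, and 95.2% of intervals held the true value. Those counts were Poisson draws of class sums, the model that the intervals assume, so that share checks the calculation only. The crowding of Spp1 UMIs in few cells was not simulated, and the intervals do not cover it. The alternatives (TMM from edgeR 4.0.16, mean over cells, stricter filter, doublets, resolution, classes from single cells, left-out sub-clusters, thinning, other filters on genes) are given at the end. Protein sequences were not used here.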

Additional observations from a re-analysis of the deposited data

Results flagged for a closer look

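Spp1 and Itgav moved in opposite directions in different cell classes between the same libraries. Each class had 1 library per group, and the differences between classes were not tested. The log2 ratio of KD over Ctrl for Spp1 was 0.58 in macrophages, against -1.03 in CD8+ T cells, -0.58 in granulocytes, -1.46 in cDCs and -0.61 in the class with tumor and fibroblast markers. The value in macrophages turned to -0.16 without the sub-clusters of 1 library. Those sub-clusters held macrophages only, so leaving them out could not change the values of the other classes. For Itgav the log2 ratio was 0.91 in CD4+ T cells and 0.89 in regulatory T cells, against -0.52 in granulocytes and -0.94 in endothelial-like cells. Groups with 1 sample allow no search for samples that lie apart.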

How the results depend on the processing

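The log2 ratio of KD over Ctrl for Spp1 in macrophages (0.58) turned negative without the sub-clusters of 1 library (-0.16) and with KD levels at the shares of UMIs that sub-clusters held in Ctrl (-0.25). It was 0.78 as a mean over cells, 0.49 at a clustering resolution of 1, 0.41 with classes from single cells and 0.74 with cells thinned. At the resolution of 1, a cluster of 1 Ctrl and 55 KD cells, led by Pf4, Arg1 and Ccl6, stayed unnamed. Spp1 was among its leading genes, and its cells were not counted as macrophages there. The log2 ratio in macrophages was 0.84 with Ctrl levels at the KD shares, where 7 Ctrl cells gave the levels of the sub-clusters of 1 library. In CD8+ T cells (-1.03) it was -1.26 as a mean over cells, -1.46 without the 1% of cells with most Spp1, -1.30 with cells thinned, -1.44 without the cycling sub-cluster, and -0.73 and -0.64 at the shares of Ctrl and KD. Macrophages over CD8+ T cells in Ctrl (-0.79) gave -0.71 both as a mean over cells and without the macrophage sub-cluster of lowest UMIs, and -0.95 with classes from single cells. In KD (0.82) these gave 1.34 as a mean over cells, 0.49 with classes from single cells and 0.075 without the sub-clusters of 1 library. Macrophage sub-clusters with Spp1 past the threshold downward were 2, and 1 with TMM or as a mean over cells. Itgb1 in granulocytes was 0.18 with classes from single cells. The cause of these changes was not tested, except where the left-out cells or the weights define the setting. The share alternatives, the 1%, thinned and cycling settings for CD8+ T cells and the lowest-UMI setting were chosen after seeing the data.

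Genes past the threshold in macrophages (1496) were 2645 with at least 50 UMIs, 8372 without a filter and 341 with a threshold of 1. These numbers were 1852, 13112 and 180 in CD8+ T cells (802) and 3211, 14397 and 468 in granulocytes (1616). Of the 5 genes most like Spp1, 3 were shared with those from a mean over cells, and 3 with those without likely doublets. Beside the Spp1 values above for macrophages and CD8+ T cells, 432 alternatives of single values were computed: 389 stayed within their spread or interval, 42 moved beyond it, and 1 turned a called value round, that of Itgb1 in granulocytes. Some settings changed the cells of macrophages or of CD8+ T cells alone, and values of other classes could not move under them. The 389 include such values, so this number overstates how far the results were put to a test. No paired analysis was possible because each group had 1 library. That also means that differences between mice were not measured.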
